A study of Caenorhabditis elegans with 8 samples.

Results

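The homeobox genes of Caenorhabditis elegans code for transcription factors that bind DNA through a homeodomain. Members were taken by name from the deposited gene table: 65 genes called ceh- with a number, and 24 further genes listed by name, such as unc-86, mec-3 and lin-39. That gave 89 homeobox genes of 46748 genes in the table. The RNA came from neurons of strain OH10689, which carries otIs355 [rab-3(prom1)::2xNLS-TagRFP] IV, a nuclear-localised TagRFP reporter under a promoter of rab-3, a gene of synaptic vesicles, and labelled cells were isolated by flow sorting. The worms were untreated, carried no other stated allele and were grown on E. coli NA22; both kits share this genotype. Each of 4 RNA samples was divided between 2 library kits, so that the SoLo Ovation kit (SoLo) and the SMARTseq V4 kit with Nextera XT (SMARTseq) gave 4 libraries each, numbered 1 to 4 by RNA sample. The comparison asks how the choice of kit changes the measured level of the same RNA. The labels give neither age nor sex of the worms, nor whether the RNA samples had separate cultures or sorts as their source. The p-values therefore reflect only the spread among these samples, which may be technical.

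Homeodomain proteins act in combinations that differ between neuron classes, and many are known in worms as terminal selectors, which switch on and maintain the genes that give a neuron class its transmitter, receptors and other features. Classes of homeodomain protein are told apart by additional domains or by sequence: LIM, POU, paired, sine oculis and CUT proteins carry or resemble such additional domains, TALE proteins are cofactors of Hox proteins, and Hox proteins pattern the body from head to tail. As background, SMARTseq V4 primes cDNA from the poly(A) tail, whereas SoLo does not depend on that tail and removes ribosomal fragments later.

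Gene counts per library totalled 2354681 to 3454199 in SoLo and 4510927 to 7099497 in SMARTseq. Levels are given in CPM, counts per 1000000 of the library size after edgeR's TMM scaling, and differences as log2(SoLo/SMARTseq) ± SE from edgeR's quasi-likelihood test, with n = 4 libraries per kit. A gene was called when its Benjamini-Hochberg adjusted p over 11378 tested genes was under 0.05. RNA sample 1 stood apart from the other 3 in both kits: the chi-square per degree of freedom between library pairs was 38.7 to 41.5 with it and 2.56 to 4.06 without it in SoLo, and 110 to 123 with it and 10.5 to 12.9 without it in SMARTseq. The 8 neuron markers summed to 11700 to 15700 CPM in SoLo and 12700 to 16500 CPM in SMARTseq. All 8 were measured in every library, but not at equal levels: 6 were called higher in SoLo, among them unc-64 by 13.5-fold and unc-31 by 9.24-fold, and sbt-1 was called higher in SMARTseq. Markers of other cell types also moved with the kit. The 4 muscle markers summed to 5480 to 7040 CPM in SoLo and 3470 to 4940 CPM in SMARTseq, the 4 intestine markers to 130 to 217 CPM in SoLo and 13.8 to 32.2 CPM in SMARTseq, with elt-2 at 0 to 0.957 CPM, and the 3 hypodermis markers to 52.9 to 84.4 CPM in SoLo and 215 to 339 CPM in SMARTseq. The muscle sum was mostly unc-54 (6190 CPM in SoLo and 3850 CPM in SMARTseq on average). Of the 4 muscle markers 3 were called higher in SoLo. The other, unc-15, was higher in SMARTseq in all 4 RNA samples, with 138 and 234 CPM on average in SoLo and SMARTseq, and was not called. The hypodermis sum was mostly col-19 (58.2 CPM in SoLo and 271 CPM in SMARTseq on average), while dpy-7 and rol-6 were above SMARTseq in SoLo in all 4 RNA samples. The 3 germline markers summed to 82 to 153 CPM in SoLo and 87.1 to 269 CPM in SMARTseq. Among them cbd-1 was called higher in SoLo, glh-1 higher in SMARTseq and pgl-1 in neither. The sums of the coelomocyte markers, unc-122 and cup-4, were 1.41 to 3.84 and 0 to 20 CPM in the same order. Their part in the results on homeobox genes was not tested.

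Most homeobox genes were detected with both kits. Of the 89, 67 had at least 1 read in every library, and 4 (ceh-76, ceh-81, ceh-85 and ceh-99) had 0 reads in all 8. In the RefSeq annotation ceh-85 is a pseudogene. After all libraries were thinned to 2354681 counts, 70, 70, 71 and 69 homeobox genes had at least 5 reads in SoLo libraries 1 to 4, against 67, 64, 64 and 66 in SMARTseq libraries 1 to 4. Each SoLo library thus held more of them than any SMARTseq library at this threshold and total count. At a threshold of 1 read the kits overlapped, with 73 to 78 genes in SoLo and 68 to 77 in SMARTseq, and at 5 reads without thinning the means were 70.8 in SoLo and 71.0 in SMARTseq. The set detected in all 8 libraries numbered 58, and 12 were detected in none. Only ceh-1 was detected in every SoLo library and in no SMARTseq library, and 0 genes showed the reverse.

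Homeobox genes took a smaller share of the counts in SoLo. Their summed share was 0.362% ± 0.0299 of all gene counts in SoLo and 0.669% ± 0.085 in SMARTseq (SD, n = 4), with ranges of 0.339% to 0.406% and 0.604% to 0.794% that did not overlap. The gene with the most reads differed between the kits. In every SoLo library it was zag-1, with 11.5% to 13% of all homeobox reads, and in every SMARTseq library it was unc-62, with 12.8% to 19%.

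Among the 68 homeobox genes that passed the filter on low counts, the kits differed in both directions. Of these, 15 were called higher in SoLo, 22.1% of those tested, where 20% of all tested genes were called, and 26 were called higher in SMARTseq, 38.2%, where 27.6% of all tested genes were called. No call was made for the other 27. In either direction 60.3% were called, against 47.6% of all tested genes. The log2 differences ran from -3.83 to 2.63 with a median of -0.14, beside a median of 0.01 over all tested genes. Because a gene could pass the filter through one kit alone, these counts describe the genes that passed and not the whole family.

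The counts rest on how the RNA samples and the scaling are treated. With the RNA sample number as a block, 19 homeobox genes were called higher in SoLo and 28 higher in SMARTseq, where 28.9% and 32.2% of all tested genes were called. Without RNA sample 1 the counts were 20 and 26 (26.2% and 32.2% of all tested genes). When RNA samples 2 to 4 were summed within each kit, edgeR called 0 of 72 homeobox genes higher in SoLo and 16 higher in SMARTseq (3.39% and 5.89% of all tested genes), with 8 and 25 at an unadjusted p under 0.05. DESeq2, run on the 8 separate libraries, called 16 and 27 of 78 (17% and 19.5% of all tested genes). Scaling by library totals moved the median of all tested genes to 0.56 and that of the homeobox genes to 0.40, and gave 27 and 24 calls (38% and 21% of all tested genes), so that 52.9% of the homeobox calls were higher in SoLo, against 36.6% with TMM. Without SMARTseq library 3, 9 of 69 homeobox genes were called higher in SoLo and 26 higher in SMARTseq (17.4% and 25.4% of all tested genes). Over the 49 homeobox genes with at least 50 reads in 4 libraries the median log2 difference was -1.12, beside 0.04 over the 6850 genes tested there. Any 4 libraries could meet that filter, so a gene could pass through SMARTseq alone, the kit with more counts per library. That median therefore describes only the genes that passed. No called homeobox gene changed direction in any of these settings.

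**Figure D1:**
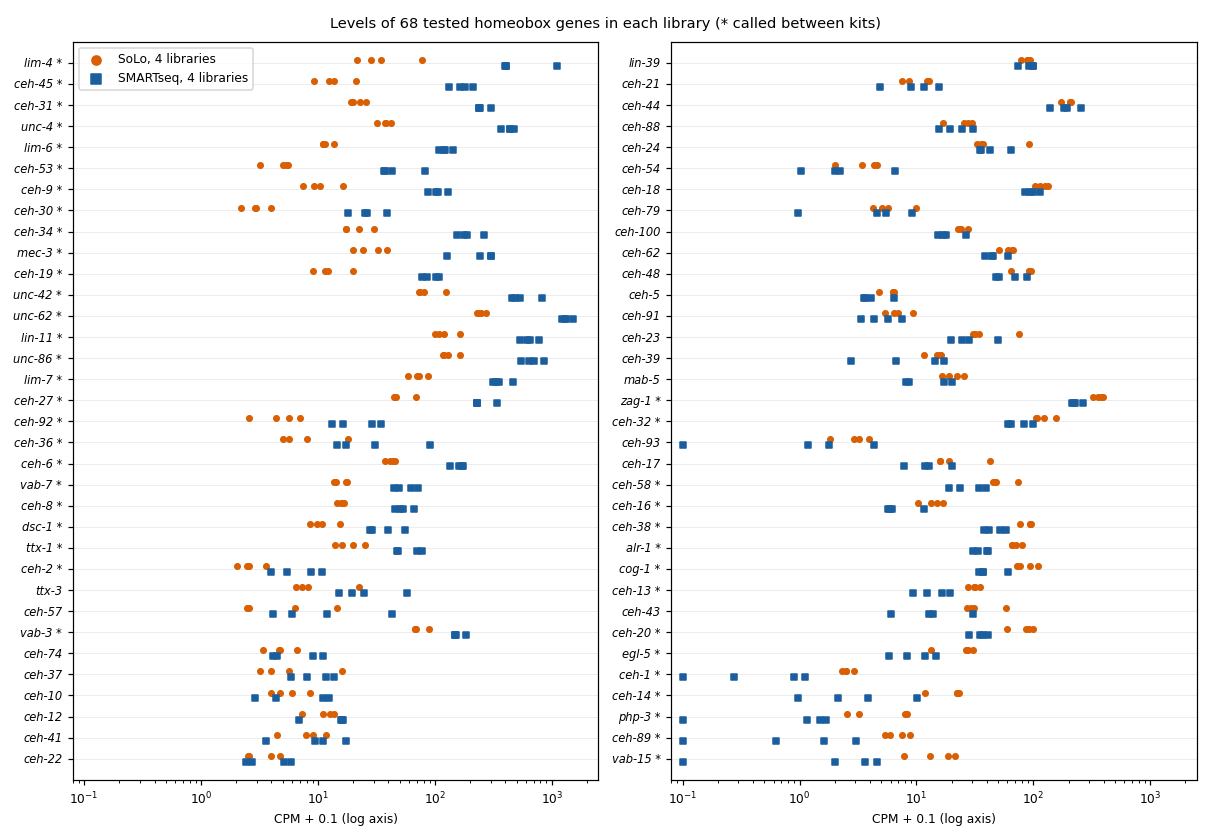
Level of each of the 68 tested homeobox genes in each library, as CPM + 0.1 on a log axis, ordered by the log2 difference from lowest in SoLo (upper left) to highest in SoLo (lower right); circles are the 4 SoLo libraries, squares the 4 SMARTseq libraries, and an asterisk marks an edgeR call. For lim-4 and unc-4 the circles lie far left of the squares, whereas for vab-15 and ceh-14 all circles lie right of all squares.

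Separation of the kits followed the calls closely. All 4 SoLo libraries lay above all 4 SMARTseq libraries for 13 homeobox genes, 19.1% of those tested, against 21.2% of all tested genes. All 4 SMARTseq libraries lay above for 25 homeobox genes, 36.8% of those tested, against 25% of all tested genes. Each of these 38 genes was called. The 3 called genes whose kits overlapped were ceh-16, ceh-36 and egl-5. Within RNA samples, 46 genes had the same direction in all 4, which is 67.6% of those tested and 67.9% of all tested genes.

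Levels per kb of exon allow genes to be compared with each other. The highest mean over both kits belonged to unc-42, with 76.0 CPM per kb in SoLo and 495 CPM per kb in SMARTseq. In the same order of kits, it was followed by unc-86 with 91.3 and 469, lin-11 with 80.6 and 421, unc-4 with 37.9 and 434, and lim-4 with 24.3 and 346 CPM per kb. Next came zag-1, with 163 CPM per kb in SoLo. The kits ordered these genes differently. In SoLo zag-1 ranked 1 and lim-4 ranked 25 of the tested genes, whereas in SMARTseq zag-1 ranked 14 and lim-4 ranked 5. Over the 89 homeobox genes, Spearman's rho of the levels in CPM was 0.82 to 0.87 between kits for the same RNA sample and 0.95 to 0.99 between RNA samples within a kit, as a description of values that share libraries and gene lengths.

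**Figure D2:**
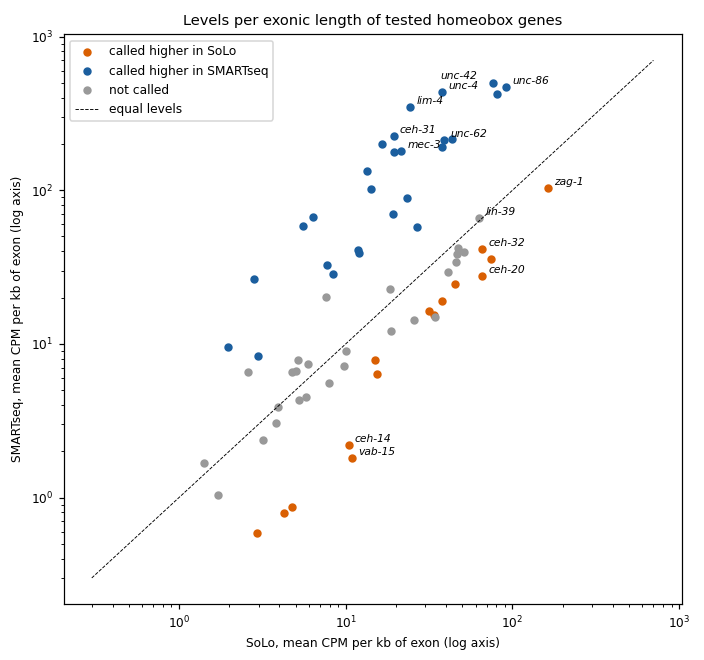
Mean CPM per kb of exon of the tested homeobox genes with an annotated length, SoLo on the horizontal and SMARTseq on the vertical log axis, n = 4 libraries per kit, coloured by edgeR call; the dashed line marks equal levels. The genes highest in SMARTseq, such as unc-42, unc-4 and lim-4, lie well above the line, and zag-1, the highest in SoLo, lies below it.

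LIM homeobox genes, which include many selectors of sensory neurons and interneurons, were mostly lower in SoLo. All 7 were tested: 5 were called higher in SMARTseq, 1 higher in SoLo and 1 in neither, with a median log2 difference of -2.39. With RNA samples 2 to 4 summed, 3 were called higher in SMARTseq and 0 higher in SoLo. Beside this and every later class count, 20% of all tested genes were called higher in SoLo and 27.6% higher in SMARTseq. With RNA samples 2 to 4 summed these shares were 3.39% and 5.89%. Known for specifying the olfactory neuron AWB, lim-4 (chromosome X 3869404 to 3873545, minus strand) had 77.6, 28.2, 34.7 and 21.4 CPM in SoLo libraries 1 to 4, against 1100, 407, 405 and 394 CPM in SMARTseq libraries 1 to 4. Library 1 was the highest in both kits and the kits did not overlap. The log2 difference was -3.83 ± 0.52 (edgeR adjusted p = 0.000248), a level 14.2-fold lower in SoLo. Its edgeR adjusted p with RNA samples 2 to 4 summed was 0.0546.

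Expressed in a few neurons, where it acts in GABAergic cells and in a left-right asymmetric taste neuron, lim-6 (chromosome X 1072452 to 1079452, plus strand) had 11, 11.3, 11 and 13.5 CPM in SoLo and 109, 142, 120 and 121 CPM in SMARTseq. All libraries of a kit were close to each other. Its log2 difference was -3.40 ± 0.18 (edgeR adjusted p = 9.37e-07). The touch neuron selector mec-3 (chromosome IV 10458816 to 10461867, minus strand), which works as a heterodimer with UNC-86, had 20, 38.5, 24.2 and 32.5 CPM in SoLo and 128, 302, 299 and 243 CPM in SMARTseq. Library 1 was the lowest in both kits, and the kits did not overlap. The log2 difference was -3.08 ± 0.32 (edgeR adjusted p = 4.7e-05), and with RNA samples 2 to 4 summed the edgeR adjusted p was 0.0535.

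A regulator of the interneuron AIZ and of motor neurons in the vulval region, lin-11 (chromosome I 10248288 to 10255327, plus strand) had 164, 101, 108 and 119 CPM in SoLo and 781, 649, 613 and 530 CPM in SMARTseq. Its log2 difference was -2.39 ± 0.20 (edgeR adjusted p = 1.12e-05). The Islet relative lim-7, also known from the gonadal sheath, averaged 72.0 ± 11.3 CPM in SoLo and 366 ± 69.8 CPM in SMARTseq (SD, n = 4), a difference of -2.34 ± 0.19 (edgeR adjusted p = 8.74e-06). For both genes every SMARTseq library lay above every SoLo library.

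The AIY interneuron selector ttx-3 had 22.2, 6.35, 8.13 and 7.26 CPM in SoLo and 57.6, 24.8, 19.6 and 14.9 CPM in SMARTseq. Library 1 was high in both kits, and the SoLo value of RNA sample 1 lay within the SMARTseq range. The log2 difference of -1.40 ± 0.54 was not called (edgeR adjusted p = 0.0547). With the block it was called (edgeR adjusted p = 0.000235), as it was without RNA sample 1 (adjusted p = 0.00142).

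The exception among LIM genes was ceh-14 (chromosome X 7527769 to 7532732, minus strand), known from the thermosensory neuron AFD. It had 11.8, 22.2, 23.2 and 22.1 CPM in SoLo and 2.03, 10.1, 0.874 and 3.73 CPM in SMARTseq. The lowest SoLo library was above the highest SMARTseq library, which was library 2. The log2 difference was 2.27 ± 0.64 (edgeR adjusted p = 0.0152), and it was 3.16 without SMARTseq library 2.

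POU genes have the POU-specific domain beside the homeodomain. Of 3 tested, 2 were called higher in SMARTseq and 0 higher in SoLo, with 0 at an unadjusted p under 0.05 in edgeR and 0 adjusted calls in DESeq2. At an unadjusted p under 0.05, DESeq2 had 1 higher in SoLo. A selector of touch receptor neurons and many others, unc-86 (chromosome III 8212740 to 8216336, minus strand) had 164, 118, 120 and 130 CPM in SoLo and 850, 700, 636 and 550 CPM in SMARTseq. The kits were far apart, with a log2 difference of -2.36 ± 0.18 (edgeR adjusted p = 7.1e-06). Likewise ceh-6 averaged 41.9 ± 3.84 CPM in SoLo and 160 ± 17.9 CPM in SMARTseq (SD, n = 4), a difference of -1.94 ± 0.16 (edgeR adjusted p = 9.21e-06). In contrast ceh-18, known for its role in gonadal sheath cells, averaged 118 ± 12.9 CPM in SoLo and 98.1 ± 12.2 CPM in SMARTseq, with a difference of 0.27 ± 0.16 that was not called (edgeR adjusted p = 0.181) but was called without RNA sample 1 (0.40, adjusted p = 0.0122).

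Paired and paired-like genes were also mostly lower in SoLo. All 14 were tested: 9 were called higher in SMARTseq, 1 higher in SoLo and 4 in neither, with a median of -1.74. With RNA samples 2 to 4 summed, 4 were called higher in SMARTseq and 0 higher in SoLo. A regulator of motor neuron identity in the ventral cord, unc-4 (chromosome II 9897751 to 9900376, minus strand) had 31.8, 42, 37.5 and 38.4 CPM in SoLo and 364, 437, 439 and 474 CPM in SMARTseq. The 2 kits each varied little, and the log2 difference was -3.52 ± 0.16 (edgeR adjusted p = 6.18e-07). A selector of command interneurons, unc-42 (chromosome V 9764534 to 9769391, minus strand) had 124, 73.4, 75.1 and 79.9 CPM in SoLo and 817, 539, 483 and 456 CPM in SMARTseq. Library 1 was the highest in both kits, and the log2 difference was -2.70 ± 0.26 (edgeR adjusted p = 2.45e-05).

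The largest paired-like difference was that of ceh-45, with 21.1, 9.18, 12.4 and 13.5 CPM in SoLo and 211, 182, 133 and 164 CPM in SMARTseq. Its log2 difference was -3.61 ± 0.28 (edgeR adjusted p = 7.24e-06). At a lower level, ceh-53 had 5.49, 4.94, 5.26 and 3.11 CPM in SoLo and 81.7, 37.4, 42.5 and 36.8 CPM in SMARTseq. SMARTseq library 1 stood above the other 3, and the difference was -3.38 ± 0.35 (edgeR adjusted p = 4.02e-05). Both genes were also called with RNA samples 2 to 4 summed.

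The OTX-type genes of this class differed less. For ttx-1, the selector of AFD, levels averaged 18.6 ± 4.93 CPM in SoLo and 60.7 ± 15.2 CPM in SMARTseq (SD, n = 4), a log2 difference of -1.71 ± 0.26 (edgeR adjusted p = 0.000527). For ceh-36, a regulator of the AWC and ASE sensory neurons, the libraries gave 17.8, 4.94, 5.50 and 7.95 CPM in SoLo and 90.6, 17.3, 30.6 and 14.4 CPM in SMARTseq. The kits overlapped through SoLo library 1. The difference of -2.07 ± 0.66 was called (edgeR adjusted p = 0.0265), but not without SMARTseq library 1, where it was -1.23 (adjusted p = 0.0524), nor without any 1 of SoLo libraries 2 to 4 (adjusted p = 0.0728 to 0.0805). It was not called when library totals were the only scaling. The third OTX gene, ceh-37, averaged 7.10 ± 5.96 CPM in SoLo and 9.73 ± 3.55 CPM in SMARTseq, without a call (edgeR adjusted p = 0.533).

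The worm Pax-6 gene vab-3, a regulator of head development, averaged 72.8 ± 10.2 CPM in SoLo and 158 ± 18.3 CPM in SMARTseq (SD, n = 4), a log2 difference of -1.12 ± 0.16 (edgeR adjusted p = 0.000354). Its kit ratio was nearly the same in the 4 RNA samples, with an SD of 0.03 on the log2(CPM + 0.5) scale. The partner of ttx-3 in AIY, ceh-10, had 8.50, 4.59, 3.83 and 5.88 CPM in SoLo and 12.2, 11, 2.80 and 4.26 CPM in SMARTseq. Its kits overlapped, the difference of -0.41 ± 0.52 was not called (edgeR adjusted p = 0.548), and its sign turned with library totals. Of the remaining genes of the class, ceh-8 (-1.79 ± 0.19) and dsc-1 (-1.77 ± 0.30) were called higher in SMARTseq, and alr-1 (0.98 ± 0.17), an aristaless relative, was the one called higher in SoLo. For dsc-1, 12.9% of the exon bases lie under genes on the opposite strand, and without a stated strand setting its counts are uncertain. Neither ceh-17 (0.83 ± 0.41) nor ceh-54 (0.24 ± 0.60) was called, although ceh-17 was called with the block (edgeR adjusted p = 0.0129).

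**Figure D3:**
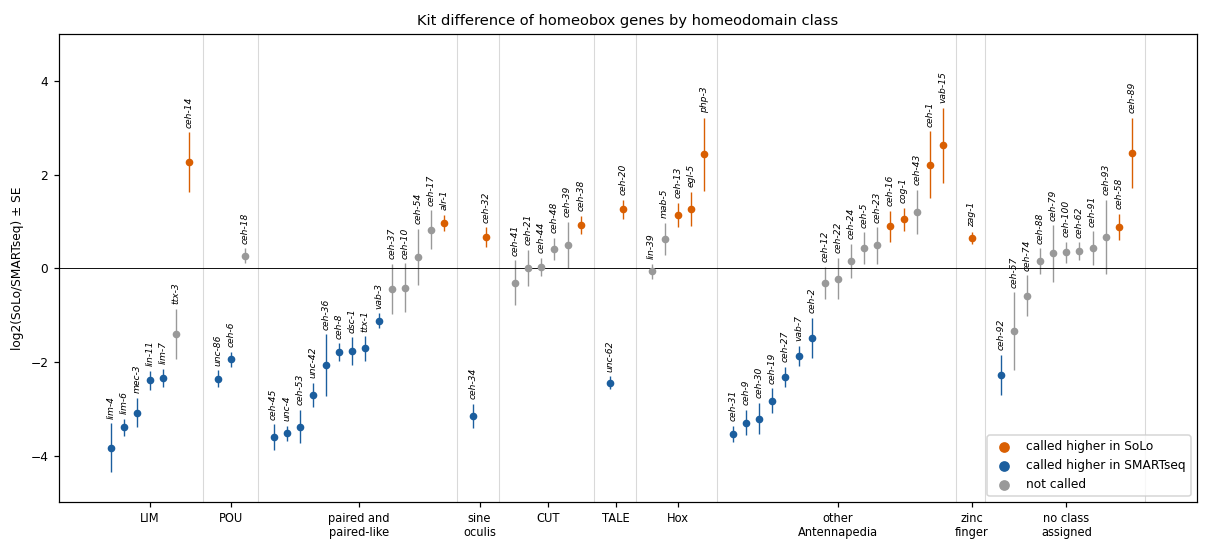
Log2(SoLo/SMARTseq) of each tested homeobox gene with its standard error (bars) from edgeR, grouped by homeodomain class and coloured by call, n = 4 libraries per kit. LIM, POU and paired genes lie mostly below 0, with medians of -2.39, -1.94 and -1.74, while the Hox genes lie at or above 0, with a median of 1.14.

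Hox genes, in contrast, were at or above the SMARTseq level in SoLo. Of 6 Hox genes 5 were tested, and 3 were called higher in SoLo and 0 higher in SMARTseq, with 0 at an unadjusted p under 0.05 in edgeR and 0 adjusted calls in DESeq2. None of these 3 calls was made with RNA samples 2 to 4 summed. The anterior, labial-type gene ceh-13 had 31, 27.5, 34.9 and 31.8 CPM in SoLo and 9.15, 16.4, 12.2 and 19.2 CPM in SMARTseq. The kits did not overlap, and the log2 difference was 1.14 ± 0.26 (edgeR adjusted p = 0.00552).

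The mid-body gene lin-39, which acts in ventral cord motor neurons and the vulva, had 93.5, 87.9, 89.7 and 78.2 CPM in SoLo and 74.4, 91.0, 98.8 and 100 CPM in SMARTseq. Its kits overlapped, and the difference of -0.06 ± 0.16 was not called (edgeR adjusted p = 0.772). With library totals it was 0.48 (adjusted p = 0.0267). The more posterior gene mab-5 had 16.5, 18.7, 22 and 25.6 CPM in SoLo and 17.1, 7.96, 8.57 and 20 CPM in SMARTseq. Its difference of 0.63 ± 0.35 was not called (edgeR adjusted p = 0.166). With mab-5 too the kits overlapped.

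Abdominal-B-type Hox genes, which pattern the tail, had the largest Hox differences. For egl-5 the libraries gave 13.2, 26.5, 27.5 and 30.4 CPM in SoLo and 5.76, 11.7, 14.5 and 8.26 CPM in SMARTseq. Library 1 was the lowest in both kits, the kits overlapped through SoLo library 1, and the log2 difference was 1.27 ± 0.37 (edgeR adjusted p = 0.0172). Without SMARTseq library 4 it was 1.15 and not called (adjusted p = 0.0527). For php-3 the values were 2.47, 8.12, 7.89 and 3.11 CPM in SoLo and 0, 1.40, 1.05 and 1.60 CPM in SMARTseq. Its difference of 2.44 ± 0.78 (edgeR adjusted p = 0.0278) was lost without SoLo library 2, SoLo library 3 or SMARTseq library 3 (adjusted p = 0.063 to 0.0869). Its neighbour nob-1 did not pass the filter, with 45 reads over the SoLo libraries and 21 over the SMARTseq libraries.

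TALE cofactors of the Hox proteins went in opposite directions. Of 4, 2 were tested. The Meis-type gene unc-62 (chromosome V 4497461 to 4511449, plus strand) had 227, 240, 274 and 250 CPM in SoLo and 1220, 1520, 1330 and 1290 CPM in SMARTseq. It was the homeobox gene with the most SMARTseq reads, and its difference was -2.44 ± 0.13 (edgeR adjusted p = 1.06e-06). The Pbx-type gene ceh-20 (chromosome III 6979884 to 6981785, plus strand), its binding partner, had 59.3, 98.8, 91.1 and 87.2 CPM in SoLo and 36.9, 40.5, 28.1 and 35.2 CPM in SMARTseq. The lowest SoLo library was still above the highest SMARTseq library, and the difference was 1.26 ± 0.21 (edgeR adjusted p = 0.000882). On the opposite strand, F31E3.8 covers 10.5% of the exon bases of ceh-20. The other Pbx genes, ceh-40 and ceh-60, had 3 and 14 reads in all 8 libraries together.

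Genes of the sine oculis class, named after the Drosophila gene, were split as well, with 2 of 3 tested. For ceh-34, a selector of pharyngeal neurons, the level averaged 21.8 ± 6.09 CPM in SoLo and 196 ± 46.6 CPM in SMARTseq (SD, n = 4), a difference of -3.16 ± 0.26 (edgeR adjusted p = 9.13e-06). For ceh-32, which acts in head development, it ranged from 105 to 155 CPM in SoLo and from 60.5 to 99.4 CPM in SMARTseq, a difference of 0.67 ± 0.21 (edgeR adjusted p = 0.0268) that was lost without SMARTseq library 3 (adjusted p = 0.0838) or 4 (adjusted p = 0.0779). The neighbour of ceh-34, ceh-33, had 9 reads in all 8 libraries.

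CUT genes include some that are expressed throughout the nervous system. Of 7 genes 6 were tested, and 1 was called higher in SoLo and 0 higher in SMARTseq, with 0 at an unadjusted p under 0.05 in edgeR and 0 adjusted calls in DESeq2. The called gene, ceh-38, averaged 90.1 ± 9.28 CPM in SoLo and 47.2 ± 9.61 CPM in SMARTseq (SD, n = 4), a difference of 0.93 ± 0.19 (edgeR adjusted p = 0.00291). It was not called with RNA samples 2 to 4 summed (edgeR adjusted p = 0.124). The pan-neuronal genes ceh-48 (0.42 ± 0.24) and ceh-44 (0.03 ± 0.19) were not called, with edgeR adjusted p = 0.176 and 0.898, although ceh-48 was called without RNA sample 1 (0.70, adjusted p = 0.00251). In the RefSeq annotation ceh-44 lies within cone-1, so reads of the 2 genes may have been shared.

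The ONECUT genes ceh-41, ceh-21 and ceh-39 lie in a row on the X chromosome, where ceh-41 ends 103 bases before ceh-21 and ceh-21 ends 1137 bases before ceh-39. Their differences were -0.31 ± 0.48, 0.01 ± 0.38 and 0.50 ± 0.49, and edgeR called none of them, with 0 at an unadjusted p under 0.05 and 0 calls in DESeq2. Their levels were low in both kits, between 8.22 and 14.6 CPM on average in SoLo and between 10.1 and 10.2 CPM in SMARTseq.

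The zinc finger homeobox gene zag-1 (chromosome IV 3855843 to 3861569, plus strand), a ZEB relative with roles in axon guidance and neuron differentiation, had the highest SoLo level per length. It had 395, 325, 359 and 379 CPM in SoLo and 267, 214, 223 and 226 CPM in SMARTseq. Each SoLo library lay above every SMARTseq library, by a log2 difference of 0.65 ± 0.13 (edgeR adjusted p = 0.00314). The kit ratio had an SD of 0.08 on the log2(CPM + 0.5) scale over the 4 RNA samples.

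The other Antennapedia-related genes, which include the NK, Bar, Msx, Dlx and even-skipped types, were called in both directions. Of 19, 17 were tested, with 4 called higher in SoLo, 7 higher in SMARTseq and 6 in neither, and a median of -0.22. With RNA samples 2 to 4 summed, 0 of these were called higher in SoLo and 5 higher in SMARTseq. Towards SMARTseq, the BarH-type gene ceh-31 had 25.5, 19.1, 22.7 and 19.7 CPM in SoLo and 299, 236, 242 and 239 CPM in SMARTseq, a difference of -3.54 ± 0.17 (edgeR adjusted p = 7.67e-07). Its BarH-type neighbour ceh-30, a survival factor of male-specific neurons, had 3.84, 2.82, 2.87 and 2.08 CPM in SoLo and 25.2, 26.4, 39 and 18.1 CPM in SMARTseq, a difference of -3.21 ± 0.33 (edgeR adjusted p = 4.31e-05). Lying 3096 bases apart in opposite orientation, these Bar genes thus differed in the same direction and by similar factors.

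For ceh-9 the values were 16.2, 7.41, 9.09 and 10.4 CPM in SoLo and 129, 86.8, 107 and 103 CPM in SMARTseq, a difference of -3.30 ± 0.27 (edgeR adjusted p = 1.01e-05). The even-skipped gene vab-7, a regulator of motor neuron identity, averaged 15.7 ± 2.06 CPM in SoLo and 57.1 ± 12.1 CPM in SMARTseq (SD, n = 4), a difference of -1.87 ± 0.21 (edgeR adjusted p = 8.51e-05). The other 3 called higher in SMARTseq were ceh-19 (-2.83 ± 0.27), known from pharyngeal motor neurons, ceh-27 (-2.32 ± 0.22) and ceh-2 (-1.48 ± 0.43). The call of ceh-2 (edgeR adjusted p = 0.0179) was lost without SoLo library 1, 2 or 3 (adjusted p = 0.055 to 0.0664) and with library totals.

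Towards SoLo, the Msx-type gene vab-15 (chromosome X 9847275 to 9849805, plus strand), which is needed for touch receptor neurons, had 7.68, 18.4, 12.9 and 21.4 CPM in SoLo and 0, 3.51, 1.92 and 4.53 CPM in SMARTseq. Every SoLo library was above every SMARTseq library, and the difference of 2.63 ± 0.80 was the largest in this direction (edgeR adjusted p = 0.022). It was not called without SMARTseq library 3, SoLo library 2 or SoLo library 4 (adjusted p = 0.0577 to 0.0647). For cog-1, an Nkx6-type gene of the taste neuron ASE, levels averaged 88.0 ± 17 CPM in SoLo and 42.4 ± 12.5 CPM in SMARTseq (SD, n = 4), a difference of 1.05 ± 0.24 (edgeR adjusted p = 0.00508). With any single library left out, cog-1 was still called.

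Near the limit of detection, ceh-1 had 2.19, 2.82, 2.39 and 2.42 CPM in SoLo and 1.02, 0, 0.175 and 0.80 CPM in SMARTseq. The difference of 2.22 ± 0.71 was called (edgeR adjusted p = 0.0269), but not without any 1 of SoLo libraries 2 to 4 (adjusted p = 0.0625 to 0.069), and without any 1 SMARTseq library ceh-1 did not pass the filter. The engrailed gene ceh-16 averaged 13.7 ± 2.81 CPM in SoLo and 7.28 ± 2.85 CPM in SMARTseq, a difference of 0.90 ± 0.33 (edgeR adjusted p = 0.0467). The call was lost without SoLo library 2, 3 or 4 or without SMARTseq library 1, 2 or 4 (adjusted p = 0.0781 to 0.12).

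Uncalled genes of this group included the Dlx-type ceh-43, a selector of dopamine neurons, at 1.21 ± 0.47 (edgeR adjusted p = 0.0573). With the block, ceh-43 and ceh-23 (0.49 ± 0.39) were called higher in SoLo (edgeR adjusted p = 0.000593 and 0.0286). The differences of ceh-12, ceh-22, ceh-24 and ceh-5 lay between -0.31 and 0.43, and none was called. Opposite-strand genes cover 23.4% of the exon bases of ceh-22 and 12.2% of those of ceh-5. The caudal-type gene pal-1, with 51 reads over the SoLo libraries and 35 over the SMARTseq libraries, and ceh-28, with 8 and 63, did not pass the filter.

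Of 25 homeobox genes without an assigned class 11 were tested, with 2 called higher in SoLo, 1 higher in SMARTseq and 8 in neither. With RNA samples 2 to 4 summed, 0 were called in either direction. The median of the 11 was 0.34. For ceh-89 the values were 8.78, 5.30, 7.41 and 5.88 CPM in SoLo and 1.52, 0, 0.525 and 2.93 CPM in SMARTseq. The kits did not overlap, and the difference was 2.47 ± 0.75 (edgeR adjusted p = 0.0213). The call of ceh-89 was lost without SMARTseq library 3 (adjusted p = 0.0597) or SoLo library 3 (adjusted p = 0.0569), and without SMARTseq library 4 the difference was 3.16. The other called genes were ceh-58 (0.88 ± 0.28) and ceh-92 (-2.28 ± 0.43). The call of ceh-58 (edgeR adjusted p = 0.0261) was lost without SoLo library 1, SMARTseq library 2 or SMARTseq library 3 (adjusted p = 0.0565 to 0.0787). With the block, ceh-57 was called higher in SMARTseq and ceh-62 higher in SoLo (edgeR adjusted p = 0.0296 and 0.0484). The call of ceh-62 was not made with the block when RNA samples 2 to 4 were summed (adjusted p = 0.0891). For ceh-88, 32.5% of the exon bases lie under C49C3.6 on the same strand.

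The 21 homeobox genes that did not pass the filter had at most 144 reads over the 8 libraries, the count of ceh-63, which had 17 in SoLo and 127 in SMARTseq. With 0 reads in all SoLo libraries, ceh-82 had 18 and ceh-84 had 13 reads in SMARTseq. Against a floor of 3 counts over the SoLo libraries, that is 4.14-fold and 2.99-fold higher in SMARTseq. When edgeR was run without a filter, neither was called (adjusted p = 0.154 and 0.0593). All 18 reads of ceh-82 were in SMARTseq library 1, so its ratio rests on that library alone, whereas ceh-84 had 7, 3, 2 and 1 reads in SMARTseq libraries 1 to 4. The floor of 3 counts corresponds to 0.221 CPM and covers counting error in SoLo only, while the SMARTseq counts were taken as they are. The other 2 genes absent from SoLo alone, ceh-7 and ceh-75, had 3 reads and 1 read in SMARTseq, and the 2 absent from SMARTseq alone, ceh-49 and ceh-90, had 2 reads and 1 read in SoLo.

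Several homeobox genes varied among RNA samples in the same way with both kits. Over the 53 genes with a mean of at least 5 CPM in each kit, the log2 ratio of library 1 to the mean of libraries 2 to 4 had a Pearson correlation of 0.80 and a Spearman correlation of 0.79 between kits, and 42 genes had the same sign. The points share the RNA samples and the normalisation. A related measure over 11379 genes, the deviation of library 1 from its kit's mean level, correlated at 0.799 between kits. The agreement was thus not particular to homeobox genes. The counts of genes given here were not made over all genes. More than 2-fold higher in library 1 with both kits were 6 of these genes: ceh-57, ceh-43, ceh-23, ceh-36, ttx-3 and lim-4. For lim-4 the ratio was 2.76 in SoLo and 2.74 in SMARTseq, for ttx-3 it was 3.07 and 2.91, and for ceh-57 it was 3.93 and 5.92. These genes were thus high in RNA sample 1 whichever kit was used.

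Genes lower in library 1 with both kits included mec-3, with ratios of 0.631 in SoLo and 0.455 in SMARTseq, egl-5, with 0.468 and 0.501, and ceh-12, with 0.578 and 0.422. Cell type markers differed in RNA sample 1 too. The neuron markers summed to 15700 CPM in SoLo library 1 and 11700 to 11800 CPM in SoLo libraries 2 to 4, and to 16500 CPM in SMARTseq library 1 and 12700 to 14700 CPM in SMARTseq libraries 2 to 4. The germline markers summed to 82 CPM in SoLo library 1 and 124 to 153 CPM in the other SoLo libraries, and to 87.1 CPM in SMARTseq library 1 and 197 to 269 CPM in the other SMARTseq libraries. The sums of neuron and intestine markers were thus higher, and those of germline and hypodermis markers lower, in RNA sample 1 with both kits. The muscle sum was lower in SoLo library 1 (5480 against 6400 to 7040 CPM in libraries 2 to 4) but within the range in SMARTseq (3590 against 3470 to 4940 CPM). The small coelomocyte sum was higher in library 1 with both kits (3.84 against 1.41 to 3.11 CPM in SoLo, 20 against 0 to 7.17 CPM in SMARTseq). Most of the neuron sum was egl-3 and sbt-1, with ratios of library 1 to the mean of libraries 2 to 4 of 1.58 and 1.38 in SoLo. In SMARTseq these were 1.64 and 1.05. The neuron markers unc-64, snb-1 and ric-4 were lower in library 1 with both kits (ratios of 0.774 to 0.894). For rab-3 the ratio was 1.02 in SoLo and 0.68 in SMARTseq, while unc-31 and unc-104 were higher in library 1 with both kits. The intestine markers summed to 217 CPM in SoLo library 1 and 130 to 161 CPM in SoLo libraries 2 to 4, and to 32.2 CPM in SMARTseq library 1 and 13.8 to 20.3 CPM in SMARTseq libraries 2 to 4. The hypodermis markers summed to 52.9 CPM in SoLo library 1 and 70.2 to 84.4 CPM in SoLo libraries 2 to 4, and to 215 CPM in SMARTseq library 1 and 269 to 339 CPM in SMARTseq libraries 2 to 4. Their part in the homeobox differences was not tested, and in bulk RNA fewer cells of a type and less RNA per cell cannot be told apart.

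**Figure D4:**
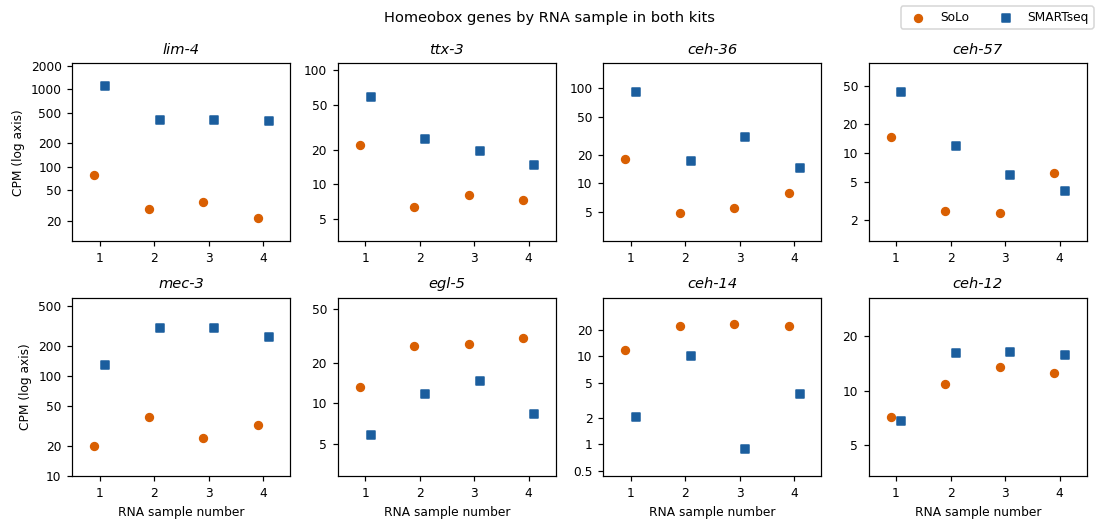
CPM (log axis) of 8 homeobox genes in each RNA sample, with SoLo (circles) left of SMARTseq (squares) at each sample number; 1 library per point, genes chosen after their values were seen. In the upper row, lim-4, ttx-3, ceh-36 and ceh-57 were highest in RNA sample 1 with both kits, and in the lower row mec-3, egl-5 and ceh-12 were lowest there with both kits.

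The ratio between kits was more stable than the levels for some genes. The level of lim-4 varied with an SD of 0.79 in SoLo and 0.73 in SMARTseq on the log2(CPM + 0.5) scale, while its kit ratio varied with an SD of 0.26, being 14.2, 14.4, 11.7 and 18.4-fold lower in SoLo in RNA samples 1 to 4. For ceh-27 the SDs of the levels were 0.30 in SoLo and 0.28 in SMARTseq and that of the ratio was 0.04. In total 23 of the 68 tested genes had a ratio that varied less than the level in either kit, and 18 of these were called. The share over all tested genes was not computed, so these counts describe the homeobox genes without setting them apart from other genes. The kit ratio of ceh-41, by contrast, had an SD of 1.06, above the 0.56 and 0.90 of its levels in SoLo and SMARTseq.

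Exonic length separated the homeobox genes little. Over the 67 tested members with an annotated exonic length, Spearman's rho between length and the log2 difference was 0.11, whereas over 10633 tested protein-coding genes it was 0.30, both as descriptions across genes of the same libraries. The median exonic length was 1386 bases for the 15 genes called higher in SoLo, 1252 for the 26 called higher in SMARTseq and 1413.5 for the 26 uncalled ones. Short and long genes lay on both sides. Under 1500 bases, 9 of 41 homeobox genes were called higher in SoLo and 17 higher in SMARTseq, where the shares of all protein-coding genes of that length were 10.8% and 35.4%. The longest, unc-62, with 6345 exonic bases, was called higher in SMARTseq, and ceh-100, with 4236, was not called. Median annotated 3′ UTR lengths were 445 bases for the genes called higher in SoLo, 227.5 for those called higher in SMARTseq and 208 for the uncalled ones, and no test was made of that difference.

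**Figure D5:**
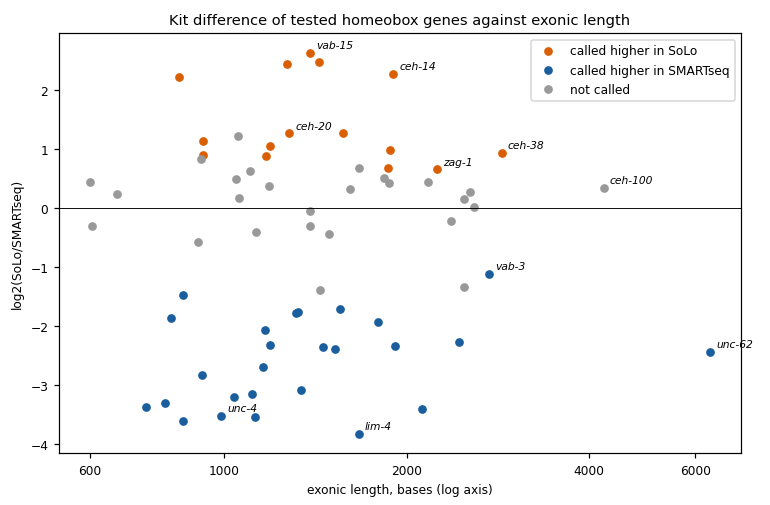
Log2(SoLo/SMARTseq) of 67 tested homeobox genes against their union exonic length in bases (log axis), coloured by edgeR call. Genes called in each direction are found at short and long lengths, from 843 to 2873 bases for those higher in SoLo and from 743 to 6345 bases for those higher in SMARTseq.

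Homeobox genes that neighbour each other did not always share a direction. The Bar genes did, but ceh-57 and ceh-58, 444 bases apart on the same strand of chromosome II, had differences of -1.34 ± 0.83 (not called) and 0.88 ± 0.28 (called). On chromosome III, lin-39 and ceh-13 lie 19027 bases apart with differences of -0.06 and 1.14, and on chromosome X, ceh-36 and ceh-37 lie 10805 bases apart with -2.07 and -0.44. By chromosome, all 10 homeobox genes of chromosome I were tested and 7 were called higher in SMARTseq and 0 higher in SoLo. Higher in SoLo there were 0 at an unadjusted p under 0.05 in edgeR, and in DESeq2 0 adjusted calls and 1 at an unadjusted p under 0.05. Of the 20 tested on the X chromosome, 5 were called higher in SoLo and 7 higher in SMARTseq, and over all tested genes of any chromosome the shares were 20% and 27.6%.

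Homeobox genes outside the selection by name were also called in both directions. Of 15 listed, 11 were tested, with 5 called higher in SoLo and 4 higher in SMARTseq, and a median of 0.34. Over all tested genes the shares called were 20% and 27.6%, and 3.39% and 5.89% with RNA samples 2 to 4 summed. With RNA samples 2 to 4 summed, 0 were called higher in SoLo in edgeR and 1, unc-30, higher in SMARTseq, with 4 in each direction at an unadjusted p under 0.05. The GABA neuron selector unc-30 averaged 63.4 and 519 CPM in SoLo and SMARTseq, a difference of -3.03 ± 0.18 (edgeR adjusted p = 1.44e-06). The large zinc finger homeobox gene zfh-2 was higher in SoLo, by 1.10 ± 0.14 (edgeR adjusted p = 0.000145). Among 4 cofactors, eya-1, whose product is a partner of sine oculis proteins, was lower in SoLo. Its difference was -3.01 ± 0.18 (edgeR adjusted p = 1.52e-06). Of the tested sine oculis genes, ceh-34 was also lower in SoLo, whereas ceh-32 was called higher in SoLo. The LIM-domain binding gene ldb-1 (0.40 ± 0.14), the Groucho corepressor gene unc-37 (0.67 ± 0.14) and its partner lsy-22 (1.51 ± 0.15) were called higher in SoLo. With RNA samples 2 to 4 summed, only eya-1 and lsy-22 of the 4 cofactors were called. The shares of all tested genes given above apply to the cofactors too.

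Genes known as targets of these regulators differed between the kits as well. Of 24 listed and tested, 2 were called higher in SoLo and 15 higher in SMARTseq, with a median of -1.06, where 20% and 27.6% of all tested genes were called. With RNA samples 2 to 4 summed the counts were 1 and 3, where 3.39% and 5.89% of all tested genes were called. All 6 listed targets of UNC-86 and MEC-3 in touch neurons were called higher in SMARTseq, as were the 2 regulators. With RNA samples 2 to 4 summed, only mec-2 of the 6 was called. Among them the tubulin gene mec-7 had a difference of -3.0 ± 0.45 and the tubulin acetylase gene mec-17 one of -3.47 ± 0.39 (edgeR adjusted p = 0.000478 and 6.81e-05, and 0.11 and 0.061 with RNA samples 2 to 4 summed). The serotonin and monoamine genes tph-1, cat-1 and bas-1, which also depend on UNC-86, were not called in edgeR or DESeq2, with 0 at an unadjusted p under 0.05, and had differences of 0.15 ± 0.22, -0.06 ± 0.22 and -0.08 ± 0.24. A regulator and its listed targets thus did not always share the direction of the kit difference. Of the genes repressed through UNC-4, acr-5 was higher in SoLo (3.20 ± 0.35, edgeR adjusted p = 5.63e-05), whereas del-1 was higher in SMARTseq (-2.44 ± 0.31, edgeR adjusted p = 0.000172).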

How the data were processed

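The authors deposited raw read counts per gene, 1 column for each of 8 libraries, without normalisation. The submitters' processing notes name STAR, SAMtools, featureCounts and build WBcel235. Not given in the sources used here are versions, the annotation release, strand setting, molecular identifiers and how multiply aligned reads were handled. Library totals were 2354681 to 7099497 counts, and 0 columns belonged to no listed sample.

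Counts were tested with edgeR 4.0.16 in R 4.3.3 (quasi-likelihood test, TMM, filterByExpr by kit, 8 libraries in 1 fit without a block, Benjamini-Hochberg adjustment over 11378 genes). SEs were approximated by dividing the absolute log2 fold change by the root of F. Alternatives were DESeq2 1.42.0, library totals, other filters, the replicate block, summed or omitted RNA samples, and single libraries left out. The numbers pair the libraries, because the design splits each RNA sample between kits. Same-numbered libraries deviated together (correlation 0.387 to 0.799 over 11379 genes), although SoLo library 4 correlated slightly better with SMARTseq library 3 (0.397) than with library 4. Among libraries 2 to 4, differently numbered pairs correlated at 0.238 to 0.412 and same-numbered pairs at 0.387 to 0.422. The correlations thus set RNA sample 1 apart but hardly tell RNA samples 2 to 4 from each other.

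Coordinates, exonic lengths and overlaps come from Ensembl release 115 of WBcel235, in which 42619 of the 46748 gene names and 87 of the 89 homeobox genes were matched, and for ceh-44 and ceh-85 from RefSeq. Detection used counts thinned with a fixed seed. No sequences are shown.

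The members, classes and gene lists were chosen with earlier results of these data known. Genes given in full were the 8 called with the largest difference towards each kit, the 6 highest per length, and fixed lists of neuron identity regulators, Hox genes and partners; other genes are named within their class or were chosen after their values were seen.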

Additional observations from a re-analysis of the deposited data

Results flagged for a closer look

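In 140 sets of 4 libraries (each homeobox gene with sufficient reads in each kit), 23 had 1 library far from the other 3 by Dixon's criterion, which chance alone meets in about 1 of 20 sets. Of the 23, 21 were library 1.

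In SoLo, library 1 stood above the other 3 for ceh-17 (42.8 CPM), ceh-58 (73.2 CPM), ceh-43 (58.2 CPM), ceh-23 (75.4 CPM), ceh-27 (69.4 CPM), ceh-24 (92.2 CPM), unc-42 (124 CPM), ttx-3 (22.2 CPM) and vab-3 (88.1 CPM). It stood below them for ceh-5 (4.66 CPM), ceh-38 (76.3 CPM), ceh-44 (171 CPM), ceh-48 (64.2 CPM) and ceh-14 (11.8 CPM). In SMARTseq, library 1 stood above the other 3 for ceh-53 (81.7 CPM), ceh-27 (340 CPM), ceh-31 (299 CPM), lim-4 (1100 CPM), vab-3 (186 CPM) and cog-1 (61.0 CPM), and below them for ceh-12 (6.78 CPM). The genes ceh-27 and vab-3 met the criterion in both kits. The remaining sets were lim-6 in SoLo, where library 4 was the highest (13.5 CPM), and ceh-16 in SMARTseq, where library 3 was the highest (11.5 CPM).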

How the results depend on the processing

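No homeobox gene called in edgeR changed direction under any alternative, and 41 of 41 calls were kept both with DESeq2 and with the replicate block. The block raised the calls to 19 higher in SoLo and 28 higher in SMARTseq, adding ttx-3, ceh-57, ceh-62, ceh-23, ceh-17 and ceh-43, and it changed no other call. Summing RNA samples 2 to 4 gave 0 calls higher in SoLo and 16 higher in SMARTseq, with 2 libraries per kit. Together with the block it gave a median log2 difference of 0.00 over 72 tested homeobox genes and lost only the calls of ceh-1 and ceh-16 among the 41; ceh-62, added by the block, was not called there (adjusted p = 0.0891). Library totals gave 27 calls higher in SoLo and reversed the median, to 0.40, along with the 6 differences of ceh-10 (0.14), ceh-12 (0.23), ceh-22 (0.32), ceh-37 (0.11), ceh-41 (0.23) and lin-39 (0.48), none of them called with TMM. The lin-39 difference, which was under its error, was also positive with DESeq2 (0.05), without a filter (0.02), with RNA samples 2 to 4 summed (0.18), in that setting with the block (0.19), and without SoLo library 4 (0.03), with a range of -0.18 to 0.03 over single libraries left out.

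The median was -1.12 over the 49 homeobox genes with at least 50 reads in 4 libraries, and -0.32 over the 63 with under 10% exon overlap, both of which test fewer genes. A gene could pass the filter of 50 reads through the larger SMARTseq libraries alone, so the first median partly reflects that selection. Leaving out each library in turn gave 9 to 17 calls higher in SoLo, 25 to 27 higher in SMARTseq and medians of -0.15 to -0.02; 9 was the count without SMARTseq library 3. The call was kept whichever library was omitted for 31 genes. At a threshold of 1 read, 75.2 homeobox genes were detected per SoLo library and 74.0 per SMARTseq library, and at 10 reads 62.8 and 57. Without thinning, the means were 70.8 in SoLo and 71.0 in SMARTseq. Of protein-coding counts, homeobox genes took 0.424% in SoLo and 0.716% in SMARTseq. Omitting RNA sample 1 together with the block, chosen after seeing the data, kept 40 of 41 calls. Genes of a few reads, such as ceh-1 and php-3, lost their calls in several settings, and the part of depth in this was not tested.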
